A study of Mus musculus with 4 samples.

Results

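The cells described here are stromal cells from mouse mammary organoid cultures that were chosen for high fibrillar collagen transcripts and are called collagen-gated stromal cells. A barcode was a member if it held at least 3000 gene UMIs (unique molecular identifiers, each standing for 1 captured transcript), at most 15% of them mitochondrial, and passed 4 limits per 10000 UMIs. Col1a1, Col1a2 and Col3a1 together had to reach 20, Krt8 plus Krt18 had to stay below 20, Krt5 plus Krt14 below 5, and C1qa, C1qb plus Tyrobp below 5. The gate found 703 members among 19382 deposited barcodes. Of the 7668 kept barcodes (those past the UMI and mitochondrial limits) of the first pool 437 were members, a share of 5.70% (Clopper-Pearson 95% interval 5.19 to 6.24%), and of the 7676 of the second pool 266 were, a share of 3.47% (3.07 to 3.90%). The members were chosen by these measured collagen, keratin and macrophage values, so their levels of those genes are a description. The members nearest to the collagen limit held 20.2 and 20.8 collagen UMIs per 10000 in the 2 pools, and the nearest barcodes outside it held 19.7 and 19.0. At the limit for Krt8 plus Krt18 the nearest members held 19.3 and 19.9, and the nearest barcodes outside held 21.4 and 20.2.

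Fibroblasts are the cells of the mammary stroma that secrete fibrillar collagens, proteoglycans and matrix-degrading enzymes, and they send growth factors and chemokines to the epithelium and to immune cells. Pericytes are contractile mural cells that wrap small vessels, and they share collagen expression with fibroblasts while carrying markers such as Rgs5 and Des. Both cell types sense the matrix around them through integrins, and both respond to TGF-beta, interferons, low oxygen and inflammatory cytokines with known target genes.

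The study cultured mammary organoids from the fat pads of virgin mice aged 8 to 9 weeks, with the lymph nodes removed, in 4 matrices named Matrigel (MATR), SOFT, collagen (COL1) and STIFF. The labels used here do not give the mouse strain, how many mice were pooled, or what the SOFT and STIFF matrices were made of, and no genetic change or drug is named. The labels describe 1 culture per condition. COL1 and STIFF cells were stained with antibody hashtags and loaded together in 1 channel, and MATR and SOFT cells in another, so a comparison across channels cannot tell the channel and the matrix apart. The 2 pools held 133608252 and 131036333 gene UMIs. The members held 7521715 and 5031020 of these, with medians of 15132 and 17294 UMIs per cell against 11990 and 12817 in the other kept barcodes.

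Hashtag counts placed 122 members in COL1 and 107 in STIFF, and 87 in MATR and 67 in SOFT. The placement depended on the tag rule. A rule on the ratio of the tags, each divided by its background, placed 146 and 254 members in COL1 and STIFF and 107 and 144 in MATR and SOFT. A 3-fold margin between the raw tag counts placed 51 and 286, and 56 and 152. By both rules STIFF and SOFT became the larger cultures of their pools. The margin made no allowance for background, the median of a tag in barcodes called for the other tag. This was 32 for the COL1 tag and 176 for the STIFF tag, and 40 for the MATR tag and 154 for the SOFT tag. In the first pool 203 members carried no called tag and 5 carried both, and in the second pool 110 and 2 did. Tagged members held 1841176 UMIs in COL1 and 2323911 in STIFF, and 1570958 in MATR and 1668743 in SOFT. The median member of SOFT held 25136 UMIs, that of STIFF 17785, that of MATR 16792 and that of COL1 14065.5, so depth differed between the cultures. All levels below are in CPM, a gene's UMIs summed over a group of cells and scaled to a fixed total for each group. Each ratio is followed by its 95% interval, an exact conditional binomial interval that covers counting error only. With 1 culture per condition there is no replicate, so no test of a matrix can be made and a difference between cultures may be no larger than that between repeat cultures of the same matrix. The number of cultures, more than the number of UMIs, limits the precision.

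The fibroblast label held for the largest group of the members but not for all of them. Clustering of the 703 cells gave 4 groups. The first, 310 cells (44.1%; 179 and 131 in the 2 pools), was led by Cck, a secreted peptide hormone, Igfbp6, a binding protein of insulin-like growth factors, the proteoglycan Lum, Fndc1 and the laminin chain Lamc3. In it 4 of the 8 fibroblast markers were at least 2-fold above the other members, and it is called fibroblast-like. The second, 272 cells (38.7%, with 176 and 96 in the pools), was led by pericyte genes and held 10 of 12 pericyte markers at least 2-fold above the other members, so it is called pericyte-like. Rgs5, a signalling regulator of mural cells, reached 272 CPM there and 1.49 CPM in the fibroblast-like cells. The intermediate filament gene Des reached 280 and 3.48 CPM, and the potassium channel gene Kcnj8 reached 81.1 and 0.497 CPM. The third, 68 cells (9.67%), was led by the division genes Ube2c, Cenpf, Top2a and Birc5 and is called cycling. The fourth, 53 cells (7.54%), was led by Lcn2, Chil1, Hp, Saa1 and Clu, and it held 9 of 12 markers of hormone-receptor-negative luminal cells at least 2-fold above the other members. Of 11 markers of hormone-receptor-positive luminal cells 7 were as far above them in this group. Krt8 and Krt18, which belong to the gate, are in both lists. It stays unnamed, and 3 of its cells carried both tags.

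Markers that were not part of the gate separated the fibroblast-like from the pericyte-like cells by large factors. Crabp1, a retinoic acid binding protein, stood at 4982 CPM in the fibroblast-like and 71.7 CPM in the pericyte-like cells, a ratio of 69.5. Lum stood at 1151 and 41.0 CPM, and the PDGF receptor gene Pdgfra at 136 and 14.8 CPM. Dcn (1257 and 397 CPM) and Mfap5 (2189 and 1099 CPM) were shared more widely. The myofibroblast-associated gene Lrrc15 reached 447 CPM in the fibroblast-like and 47.7 CPM in the pericyte-like cells, while Postn was alike at 2433 and 2403 CPM. The 12 adventitial fibroblast genes summed to 2579 CPM in the fibroblast-like cells, most of it Mfap5, with Anxa3 at 177 and Ly6a at 156 CPM, while Pi16, Cd34 and Dpp4 stood at 5.13, 8.28 and 0.166 CPM. Since the clusters were made from these genes, the values describe them and test nothing.

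**Figure D1:**
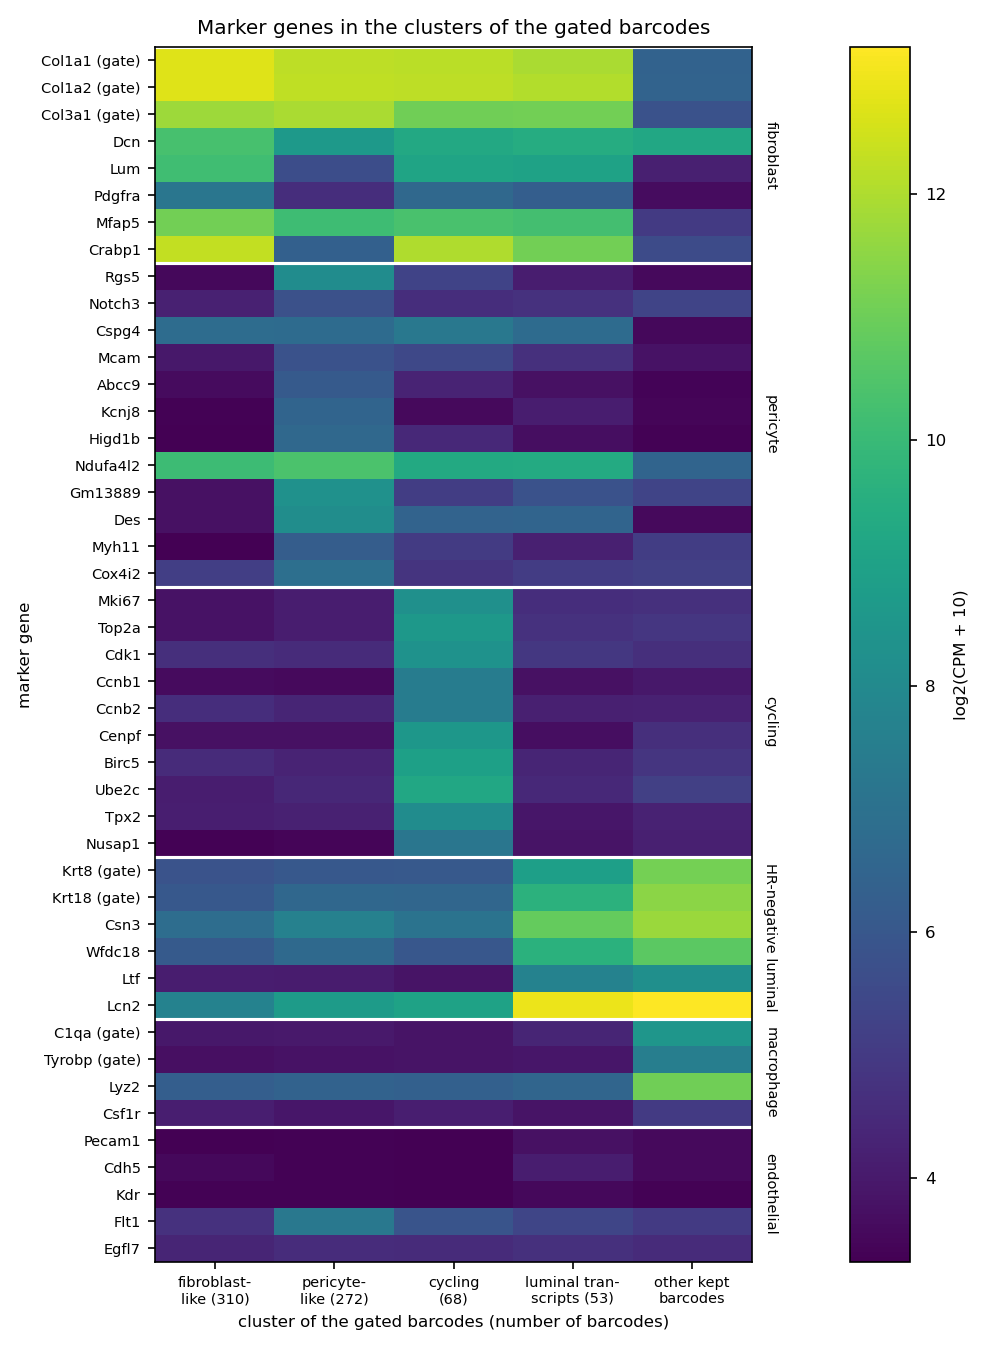
Levels of marker genes as log2(CPM + 10), in colour, with marker genes in rows (genes of the gate are labelled) and 5 cell groups in columns: the fibroblast-like (310 cells), pericyte-like, cycling (68) and unnamed cluster with luminal transcripts (53) and the other kept barcodes. Crabp1 and Lum are high in the fibroblast-like column and Rgs5 and Des in the pericyte-like column, and the fibrillar collagens are high in all 4 clusters.

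After each cell was thinned to 3000 UMIs, Crabp1 was seen in 87.7% and 82.4% of fibroblast-like cells of the 2 pools and in 3.98% and 2.08% of pericyte-like cells. Among the other kept barcodes it was seen in 2.77% and 1.40%. These include 70 and 30 barcodes that failed only the limit for Krt8 plus Krt18, so free RNA, stromal cells outside the gate and doublets cannot be told apart in that share. Rgs5 was seen in 31.2% and 42.7% of pericyte-like cells and in 0.373% and 0.189% of the other kept barcodes. In sums over all members, fewer cells of a cluster and less RNA per cell cannot be told apart. The fibroblast-like share was close in the 4 cultures, at 48.4% in COL1 and 48.6% in STIFF, and 47.1% in MATR and 52.2% in SOFT. The pericyte-like share was 40.2% in COL1 and 28% in STIFF, and 36.8% in MATR and 22.4% in SOFT. The cycling share was 6.56% in COL1 and 12.1% in STIFF, and 9.2% in MATR and 13.4% in SOFT, from only 8, 13, 8 and 9 cells. The cultures' order by cycling share was their order by median depth, and their order by pericyte-like share was the reverse. The median fibroblast-like cell held 17825.5 UMIs and the median pericyte-like cell 11573.5. The levels of the fibroblast-like cells alone, 59 in COL1 and 52 in STIFF, and 41 in MATR and 35 in SOFT, are given beside those of all members.

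Macrophage and luminal transcripts were lower in the members of each culture than in the other kept barcodes, though 1 cluster held luminal transcripts at a high level. The summed markers of macrophages outside the gate ranged from 76.2 to 106 CPM over the 4 cultures' members, against 2565 and 2541 CPM in the other kept barcodes of the 2 pools. Hormone-receptor-negative luminal markers summed to between 1873 and 3237 CPM over the cultures against 19928 and 17207 CPM. In the 53 cells with luminal transcripts they summed to 13186 CPM, and in the other 3 clusters to between 1121 and 1407 CPM. Endothelial markers summed to between 64.1 and 110 CPM, above the 48.7 and 39.4 CPM of the other barcodes. They were concentrated in the pericyte-like cells, where Flt1 reached 144 CPM and Emcn 79.2 CPM while the defining genes Pecam1, Cdh5, Kdr and Tie1 each stood at 0.279 CPM. Erythroid markers were at 0 UMIs in the members of each culture. The part that other cells' transcripts play in the differences below was not tested, except where values without a cell or a cluster are given.

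Against the other kept barcodes, 294 of 5836 genes (5.04%) were at least 4-fold higher in the members of both pools. Because the gate selects on collagens, this list describes the cells and is no test. Crabp1 stood at 2979 against 52.4 CPM in the first pool and at 3458 against 24.2 CPM in the second. The collagens Col5a2, Col6a3, Col15a1, Col6a1, Col6a2 and Col5a1 were among the 25 leading genes, with Col5a2 at 1370 against 28.4 CPM and 1362 against 14.2 CPM. Genes that finish or link collagen were there too, among them Pcolce, which helps to cleave procollagen, and the crosslinking enzyme Lox at 543 against 11.3 CPM and 666 against 5.64 CPM. The stromelysin Mmp3 stood at 1214 against 25.7 CPM and 1076 against 10.2 CPM, and its inhibitor Timp1 at 3223 against 115 CPM and 3123 against 74.1 CPM. The monocyte-attracting chemokine Ccl8 stood at 830 against 19.1 CPM and 754 against 14 CPM. Of the 8 fibroblast markers Dcn was the least specific to these cells, at 870 against 498 CPM in the first pool and 870 against 681 CPM in the second.

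Fibroblast-like and pericyte-like cells carried different sets of secreted signals. In this and all later counts a gene was taken as measured when it reached 20 CPM in either group, and as higher or lower when the log2(CPM + 10) values differed by at least 1.5-fold. A gene that passes only through its higher group had to differ, so such counts are read against the same count over all genes. The clusters were made from variable genes of these same cells, so counts between clusters, here and in the next paragraphs, describe them and test nothing. Over all genes 5.76% were higher and 4.18% lower in the fibroblast-like cells in both pools. Of 27 growth factors and antagonists 11 were higher and 2 lower. The BMP antagonist Grem1 stood at 153 CPM in fibroblast-like against 16.2 CPM in pericyte-like cells, a ratio of 9.45. The activin subunit Inhbb stood at 104 against 18.7 CPM, Mdk at 157 against 38.2 CPM, Igf1 at 60.9 against 25.1 CPM, and the ERBB ligands Nrg1 at 22.4 against 7.25 CPM and Ereg at 25.7 against 5.58 CPM. The pericyte-like cells held more of 2 ligands, Pdgfa at 476 against 99.2 CPM and Tgfb2 at 136 against 26.5 CPM.

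Receptors and inflammatory mediators differed as well. Of 27 receptors and integrins 6 were higher in the fibroblast-like cells and 3 lower in both pools. Besides Pdgfra, the FGF receptor Fgfr1 was higher at 207 against 36.5 CPM and the surface glycoprotein Thy1 at 676 against 219 CPM. The collagen-binding integrin chain Itga1 stood at 79.8 in the fibroblast-like against 374 CPM in the pericyte-like cells, and the interleukin-6 family co-receptor Il6st at 45.0 against 93.1 CPM. Of 19 chemokines and inflammatory mediators 4 were higher in the fibroblast-like cells and 5 lower. Cxcl14 stood at 2232 against 91.2 CPM and Ccl8 at 1188 against 310 CPM. Prostaglandin synthesis genes were higher in the fibroblast-like cells too, with Ptgs2 at 198 against 81.1 CPM and Ptges at 60.4 against 21.2 CPM. The pericyte-like cells held more Il6, at 43.2 against 5.46 CPM, more of the acute-phase gene Saa3, at 1460 against 448 CPM, and more of the neutrophil-attracting Cxcl1, at 604 against 185 CPM. The Saa3 sums rested on few cells, and the highest, an untagged pericyte-like cell, held 1010 UMIs per 10000. Saa3 was seen in 6 of 49 pericyte-like and 14 of 59 fibroblast-like cells of COL1, and in 12 of 30 and 15 of 52 of STIFF.

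Matrix and metabolic genes added to this split. Of 25 interstitial matrix genes 15 were higher and 1 lower in the fibroblast-like cells, among them the elastic fibre gene Eln at 194 against 39.6 CPM, Smoc2 at 122 against 9.48 CPM and Tnc at 897 against 368 CPM. The basement membrane chains Col4a1 and Col4a2 were lower, at 193 against 532 CPM and 128 against 365 CPM. Of 18 contractile genes none was higher and 7 were lower (Des, Actg2, Myh11, Mylk, Lmod1, Csrp1 and Cald1). Of 15 cholesterol synthesis genes 9 were higher and none lower, with the epoxidase Sqle at 41.6 against 13.1 CPM.

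**Figure D2:**
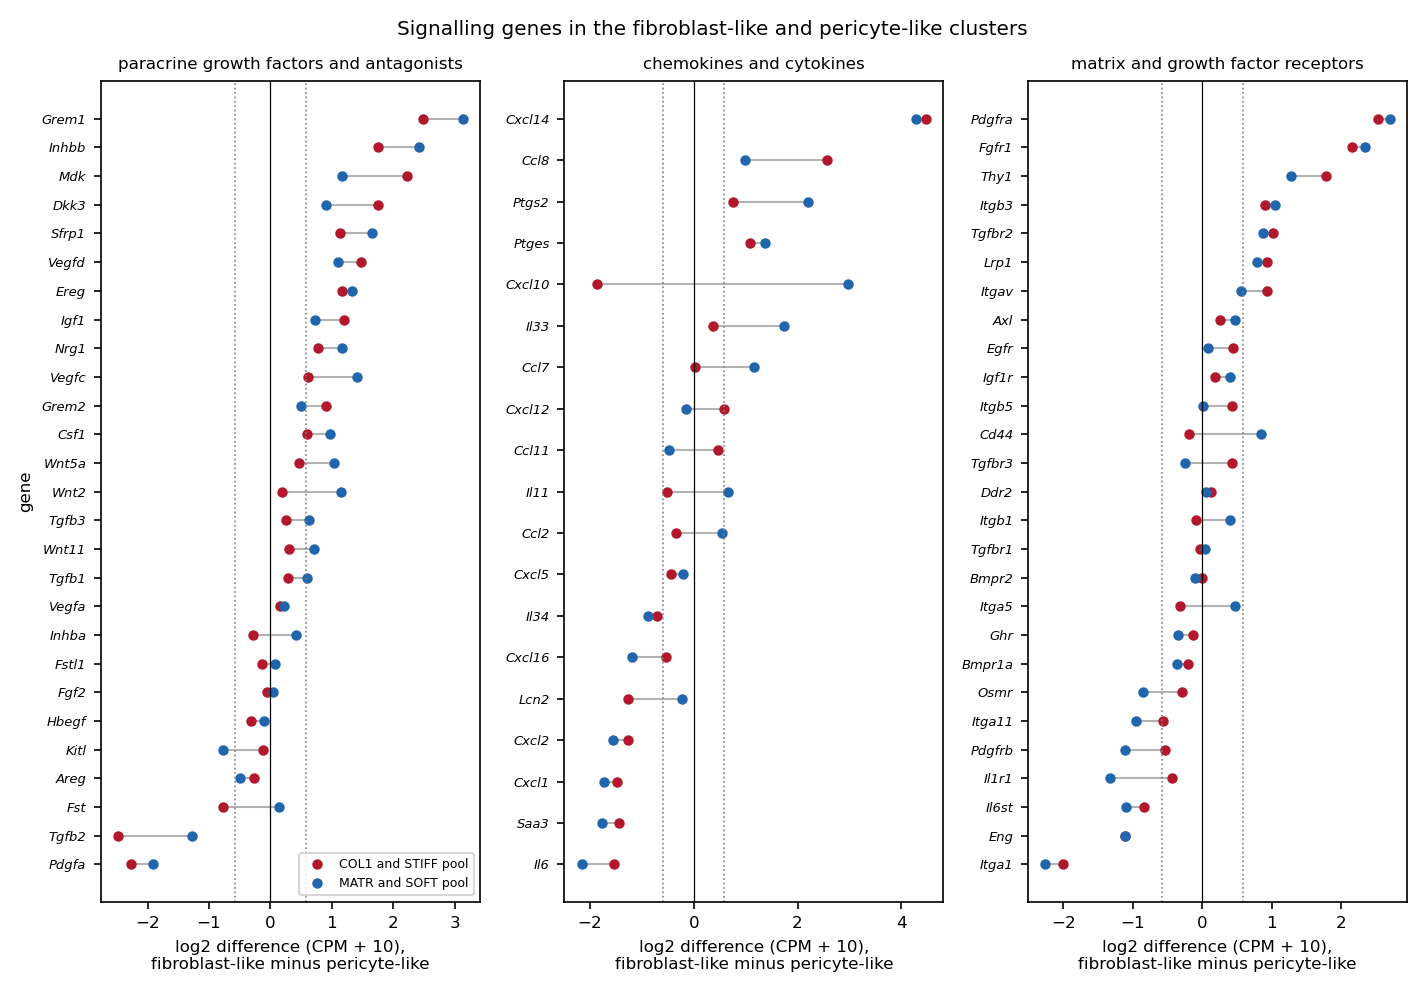
Difference of log2(CPM + 10), fibroblast-like minus pericyte-like cells, for growth factors, receptors and inflammatory genes in 3 panels, with 1 point per pool and dotted lines at 1.5-fold either way. Grem1, Fgfr1 and Cxcl14 lie to the fibroblast-like side and Pdgfa, Tgfb2, Itga1 and Il6 to the pericyte-like side in both pools.

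The cultures differ, by their labels, in the matrix in which the organoids grew, and the members were compared between matrices in 4 ways. Within a channel COL1 was set against STIFF and MATR against SOFT. Across channels STIFF was set against SOFT and COL1 against MATR. Each culture enters 2 comparisons, so these are not independent of each other. Of 5984 measured genes 2.89% were higher and 3.99% lower in COL1 than in STIFF. Of 5996 genes 4.45% were higher and 3.14% lower in MATR than in SOFT. Of 5951 genes 3.48% were higher and 2.1% lower in STIFF than in SOFT, and of 6020 genes 2.52% were higher and 3.9% lower in COL1 than in MATR. Within the fibroblast-like cells, which are fewer, the shares were 4.38% and 5.28% for COL1 over STIFF, 7.25% and 6.42% for MATR over SOFT, 5.52% and 4.39% for STIFF over SOFT, and 5.12% and 5.71% for COL1 over MATR.

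**Figure D3:**
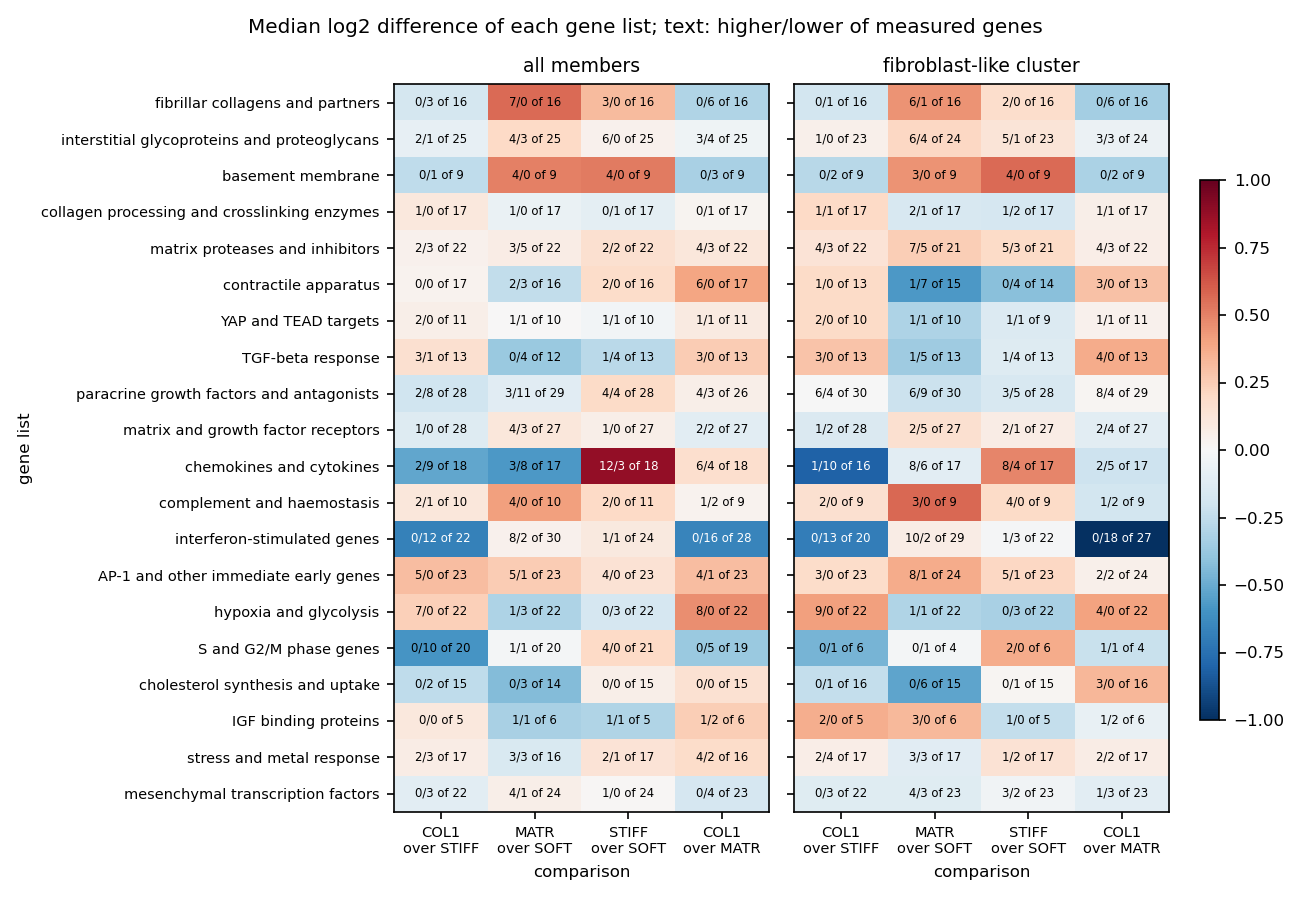
Median log2(CPM + 10) difference of each of 20 gene lists in the 4 matrix comparisons (colour), for all members and for the fibroblast-like cells, with the number of higher and lower genes of those measured written in each square. Interferon-stimulated genes are lower in COL1 than in STIFF and in MATR. Fibrillar collagens and their partners, a list that includes the collagens of the gate, are higher in MATR than in SOFT.

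Fibrillar collagen genes, whose products form the structural fibres of the stroma, were at their highest in MATR. Of the 16 genes of this list 3 (Col1a1, Col1a2 and Col3a1) belong to the gate, so their levels in part reflect which cells entered. The counts and the list median below include these 3 genes, so they are a description. Col3a1 and Col1a2 are among the genes counted as higher in MATR than in SOFT. Col3a1 stood at 3799 CPM in COL1 and 3572 in STIFF, and 4372 in MATR and 2603 in SOFT, a MATR over SOFT ratio of 1.68 (1.62 to 1.75). Col1a2 stood at 5370 CPM in COL1 and 6453 in STIFF, and 8129 in MATR and 5264 in SOFT. Col6a1, a chain of the beaded filaments that surround cells, was outside the gate and stood at 974 CPM in COL1 and 1105 in STIFF, and 1660 in MATR and 796 in SOFT, a MATR over SOFT ratio of 2.09 (1.95 to 2.23). Of the 16 genes 7 were higher and none lower in MATR than in SOFT (4.45% of all genes were higher), with a list median of 0.57 on the log2 scale, and in the fibroblast-like cells 6 were higher and 1 lower (7.25% and 6.42% of all genes there). In COL1 against MATR 6 were lower and none higher (3.9% of all genes were lower), and in the fibroblast-like cells 6 were lower as well (5.71% of all genes there). Between COL1 and STIFF 3 were lower and none higher (Col11a1, Col14a1 and Col15a1; 3.99% of all genes were lower), and in STIFF against SOFT 3 were higher and none lower (3.48% of all genes were higher).

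Several basement membrane genes were lowest in SOFT and highest in MATR. Col4a1, a chain of the collagen network of basement membranes, stood at 212 CPM in COL1 and 333 in STIFF, and 442 in MATR and 149 in SOFT. Its MATR over SOFT ratio was 2.96 (2.56 to 3.44) and its STIFF over SOFT ratio 2.23 (1.93 to 2.59). In the fibroblast-like cells it stood at 110 CPM in COL1 and 236 in STIFF, and 367 in MATR and 112 in SOFT, with MATR and STIFF again above COL1 and SOFT. Other kept barcodes of the same cultures held 28.8, 14.9, 11.2 and 6.28 CPM in COL1, STIFF, MATR and SOFT, with COL1 and not MATR highest. Its partner Col4a2 stood at 162, 212, 266 and 96.5 CPM and the laminin chain Lama2 at 51.6, 68.8, 85.9 and 36.0 CPM in the same order of cultures. Of 9 measured genes of the list 4 were higher and none lower both in MATR against SOFT and in STIFF against SOFT (4.45% and 3.48% of all genes were higher), and none was higher and 3 were lower in COL1 against MATR (3.9% of all genes were lower).

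The elastic fibre gene Eln and the adhesion-modulating gene Tnc differed in opposite directions between MATR and SOFT. Eln stood at 190 CPM in COL1 and 89.1 in STIFF, and 356 in MATR and 34.2 in SOFT, a MATR over SOFT ratio of 10.4 (7.94 to 14). A single cell held 44.0% of the Eln UMIs of COL1 and 35.9% of those of MATR. Without the top cell of each culture the levels were 110, 79.3, 237 and 28.6 CPM, in the same order. Smoc2, a matricellular protein, stood at 72.8 CPM in COL1 and 99.0 in STIFF, and 135 in MATR and 41.9 in SOFT, with MATR over SOFT at 3.22 (2.44 to 4.28). Tnc, an adhesion-modulating glycoprotein of remodelling stroma, was lowest in MATR, at 773 CPM in COL1 and 818 in STIFF, and 380 in MATR and 1009 in SOFT, with SOFT over MATR at 2.65 (2.42 to 2.92). Thbs1, a thrombospondin that can activate latent TGF-beta, stood at 381, 493, 265 and 537 CPM in the same order of cultures, but its order turned round by cluster. Fibroblast-like cells held 152 CPM of Thbs1 in MATR and 792 in SOFT, while pericyte-like cells held 580 and 204 CPM. Of the crosslinking enzymes 1 of 17 was called in each comparison (between 5.58% and 7.59% of all genes were), among them the lysyl hydroxylase Plod2, at 229 CPM in COL1 and 130 CPM in STIFF.

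Matrix-degrading enzymes and their inhibitors were led by Mmp13, a collagenase that cleaves fibrillar collagen. It stood at 747 CPM in COL1 and 147 in STIFF, and 42 in MATR and 588 in SOFT, and the levels of COL1 and SOFT stood above those of STIFF and MATR. The COL1 over STIFF ratio was 5.09 (4.52 to 5.75), COL1 over MATR 17.8 (13.9 to 23.1), SOFT over MATR 14 (10.9 to 18.3) and SOFT over STIFF 4.01 (3.54 to 4.55). The UMIs came from 26 cells in COL1 and 23 in STIFF, and 8 in MATR and 13 in SOFT, and the top cell held 18%, 25.5%, 27.3% and 26.8% of them. In the fibroblast-like cells the levels were 1244, 236, 56.1 and 494 CPM in COL1, STIFF, MATR and SOFT, and in the other kept barcodes 7.09, 11.1, 2.75 and 3.15 CPM.

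Other proteases differed less. The stromelysin Mmp10 stood at 126 CPM in COL1 and 89.1 in STIFF, and 51.6 in MATR and 58.7 in SOFT. The gelatinase Mmp9 stood at 29.9, 37.0, 7.64 and 30.0 CPM, low in MATR, while the other gelatinase Mmp2 was highest there at 526, 453, 720 and 444 CPM in COL1, STIFF, MATR and SOFT. Timp3, a matrix-bound protease inhibitor, was highest in STIFF at 844 CPM, against 432 in COL1, 528 in MATR and 476 in SOFT. Of 22 genes of the protease list 2 were higher and 3 lower in COL1 against STIFF (2.89% and 3.99% of all genes). In MATR against SOFT 3 were higher and 5 lower (4.45% and 3.14% of all genes). In STIFF against SOFT 2 were higher and 2 lower (3.48% and 2.1%), and in COL1 against MATR 4 were higher and 3 lower (2.52% and 3.9%).

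**Figure D4:**
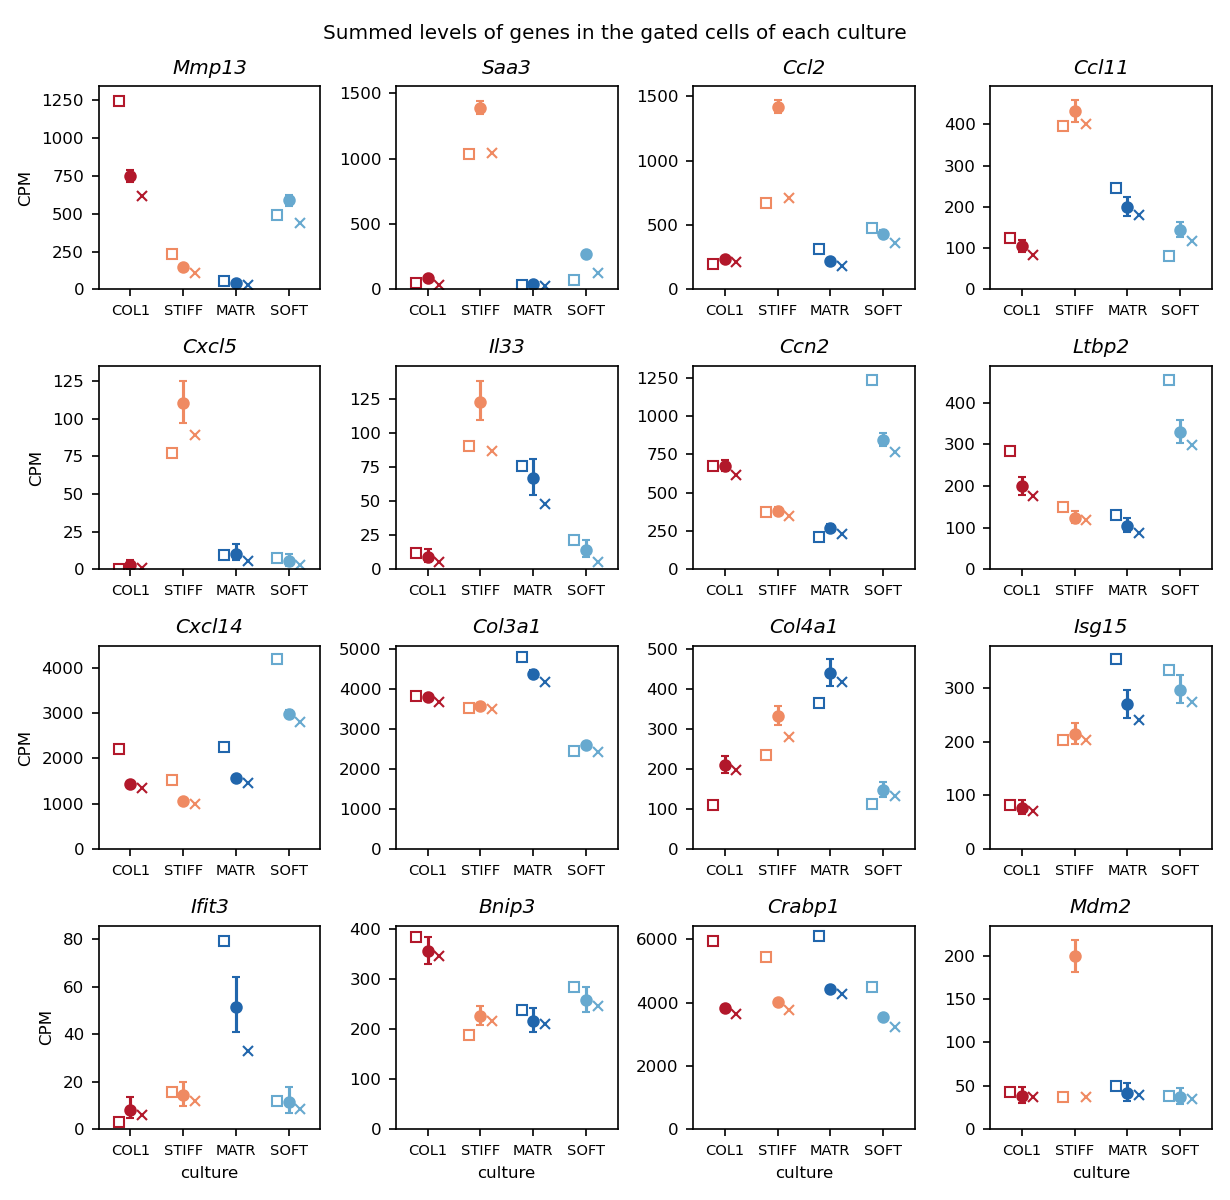
CPM of 16 genes in the members of COL1, STIFF, MATR and SOFT, chosen after their values were seen. Filled circles are all tagged members with Poisson 95% intervals for counting error, open squares the fibroblast-like cells alone, and crosses the level without the cell that holds most UMIs of the gene. Mmp13 is high in COL1 and SOFT, Ccl11 and Il33 are highest in STIFF, and Isg15 is lowest in COL1.

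The contractile genes Tagln and Acta2, marks of smooth muscle and myofibroblasts, were lowest in MATR. Tagln, an actin-bundling protein, stood at 1998 CPM in COL1 and 1618 in STIFF, and 1054 in MATR and 2192 in SOFT, with SOFT over MATR at 2.08 (1.96 to 2.21) and COL1 over MATR at 1.90 (1.79 to 2.01). Acta2, the smooth muscle actin, stood at 1671, 1993, 1115 and 1816 CPM, with SOFT over MATR at 1.63 (1.54 to 1.73). Among fibroblast-like cells SOFT was highest for both genes, with Tagln at 1781, 1077, 1137 and 2554 CPM and Acta2 at 1454, 1403, 1077 and 2212 CPM in COL1, STIFF, MATR and SOFT. In the pericyte-like cells, 32 in MATR and 15 in SOFT, Acta2 was higher in MATR, by 1.94 on the log2 scale. The other kept barcodes ran differently too, with Acta2 at 352, 323, 223 and 97.3 CPM, lowest in SOFT. Of 16 measured contractile genes 2 were higher and 3 lower in MATR against SOFT (4.45% and 3.14% of all genes). In the fibroblast-like cells 1 of 15 was higher and 7 were lower (6.42% of all genes there), with a median of -0.58. In STIFF against SOFT 2 of 16 were higher (3.48% of all genes) and none lower over all members, while in the fibroblast-like cells none of 14 was higher and 4 were lower (4.39% of all genes there). Of 17 genes none was called in COL1 against STIFF, and 6 were higher in COL1 than in MATR (2.52% of all genes).

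The TGF-beta and YAP target Ccn2, a matricellular growth factor of fibrotic tissue, was highest in SOFT. It stood at 677 CPM in COL1 and 380 in STIFF, and 269 in MATR and 846 in SOFT. SOFT exceeded MATR by 3.15 (2.82 to 3.52) and STIFF by 2.23 (2.04 to 2.42), and COL1 exceeded STIFF by 1.78 (1.63 to 1.94). Fibroblast-like cells alone held 677, 374, 210 and 1237 CPM in COL1, STIFF, MATR and SOFT. In the sums of the pericyte-like cells the order turned round, with MATR above SOFT by 0.69 and STIFF above SOFT by 0.61 on the log2 scale. The median pericyte-like cell did not follow, at 0.369 Ccn2 UMIs per 10000 in MATR, 0 in STIFF and 0.668 in SOFT. Ltbp2, a latent TGF-beta binding protein, stood at 199 CPM in COL1 and 124 in STIFF, and 105 in MATR and 330 in SOFT, with SOFT over MATR at 3.14 (2.63 to 3.76). Of 12 measured TGF-beta targets none was higher and 4 were lower in MATR against SOFT (among them Ccn2, Ltbp2 and Cthrc1), where 3.14% of all genes were lower. Of 13 in STIFF against SOFT 1 was higher and 4 were lower (2.1% of all genes were lower). In COL1 against STIFF 3 were higher and 1 was lower, and in COL1 against MATR 3 were higher (2.89% and 2.52% of all genes were higher). The YAP target list, which shares Ccn2, held 2 higher and none lower of 11 in COL1 against STIFF (2.89% and 3.99% of all genes). It held 1 each way in MATR against SOFT (4.45% and 3.14%), in STIFF against SOFT (3.48% and 2.1%) and in COL1 against MATR (2.52% and 3.9%).

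Secreted growth factors and their antagonists were more often higher in SOFT than in MATR. Of 29 measured genes 11 were lower and 3 higher in MATR against SOFT, where 3.14% of all genes were lower. Among fibroblast-like cells the split was closer, with 9 of 30 lower (6.42% of all genes there) and 6 higher. Inhba, the activin A subunit, stood at 804 CPM in COL1 and 716 in STIFF, and 495 in MATR and 1240 in SOFT, with SOFT over MATR at 2.50 (2.31 to 2.72) and SOFT over STIFF at 1.73 (1.62 to 1.85). The activin antagonist Fst stood at 51.1 CPM in COL1 and 108 in STIFF, and 37.6 in MATR and 129 in SOFT, with SOFT over MATR at 3.45 (2.57 to 4.68) and STIFF over COL1 at 2.11 (1.66 to 2.70). Ligand and antagonist were thus both lowest in MATR and highest in SOFT, while STIFF was above COL1 for the antagonist only. Grem1 stood at 128 CPM in COL1 and 139 in STIFF, and 50.3 in MATR and 162 in SOFT, with SOFT over MATR at 3.23 (2.50 to 4.2). Within the fibroblast-like cluster, where Grem1 was concentrated, it stood at 165, 192, 73.6 and 230 CPM in COL1, STIFF, MATR and SOFT, in the same order.

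The ligands of epithelial ERBB receptors and of vessels showed like differences at lower levels. Nrg1 stood at 11.9 CPM in COL1 and 33.6 in STIFF, and 3.18 in MATR and 27.0 in SOFT, from 12, 21, 5 and 18 cells, with STIFF over COL1 at 2.81 (1.73 to 4.74). Hbegf stood at 67.9, 61.5, 40.1 and 111 CPM in COL1, STIFF, MATR and SOFT. Areg stood at 27.7, 62.8, 31.2 and 52.1 CPM in the members, far below the 1342, 1718, 1684 and 1369 CPM of the other kept barcodes of the same cultures, and the part of free RNA from those cells was not tested. Vegfa, the main vessel growth factor, stood at 192 CPM in COL1 and 130 in STIFF, and 122 in MATR and 216 in SOFT. The secreted WNT antagonist Sfrp1 ran the other way, at 23.4, 9.47, 42.6 and 13.8 CPM in COL1, STIFF, MATR and SOFT. In COL1 against STIFF 8 of 28 growth factor genes were lower and 2 higher (3.99% and 2.89% of all genes). Without the deepest STIFF cell, described at the end, 5 of 27 were lower (3.35% of all genes) and 1 higher (2.79%). In STIFF against SOFT 4 of 28 were higher and 4 lower (3.48% and 2.1% of all genes), and without that cell none was higher (2.85% of all genes) and 4 of 27 were lower (2.26%). In COL1 against MATR 4 of 26 were higher and 3 lower (2.52% and 3.9% of all genes). Within the fibroblast-like cluster 6 of 30 were higher and 4 lower in COL1 against STIFF (4.38% and 5.28% of all genes there), so the excess of lower over higher genes seen over all members was absent there.

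Receptors and integrins were more often called between MATR and SOFT than between COL1 and STIFF. Of 28 measured genes 1 was called in COL1 against STIFF (6.89% of all genes were), the collagen-binding integrin chain Itga11, at 41.8 CPM in COL1 and 21.1 in STIFF, and 38.8 in MATR and 31.2 in SOFT. The fibronectin-binding chain Itga5 stood at 153, 145, 85.3 and 150 CPM and its partner Itgb1 at 953, 836, 603 and 802 CPM in the same order of cultures, both lowest in MATR. Of 27 genes 4 were higher and 3 lower in MATR against SOFT (4.45% and 3.14% of all genes). In STIFF against SOFT 1 was higher (3.48%), and in COL1 against MATR 2 were higher and 2 lower (2.52% and 3.9%). Pdgfra stood at 83.6, 119, 118 and 87.5 CPM in COL1, STIFF, MATR and SOFT.

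Chemokine and acute-phase genes were more often higher in STIFF than in COL1 or SOFT. In COL1 against STIFF 9 of 18 measured genes were lower and 2 higher, where 3.99% of all genes were lower. In the fibroblast-like cells 10 of 16 were lower and 1 higher (5.28% and 4.38% of all genes there). In STIFF against SOFT 12 of 18 were higher and 3 lower (3.48% of all genes were higher), and without the deepest STIFF cell 10 were higher and 5 lower (2.85% and 2.26% of all genes). Within the fibroblast-like cluster 8 of 17 were higher and 4 lower (5.52% and 4.39% of all genes there). The eosinophil-attracting Ccl11 stood at 105 CPM in COL1 and 432 in STIFF, and 200 in MATR and 144 in SOFT, from 40, 72, 39 and 25 cells. STIFF exceeded COL1 by 4.12 (3.53 to 4.83) and SOFT by 2.99 (2.60 to 3.46). Among fibroblast-like cells Ccl11 stood at 125, 397, 247 and 80.1 CPM in COL1, STIFF, MATR and SOFT, and in the other kept barcodes it was no higher than 3.82 CPM, the STIFF value. The alarmin Il33 stood at 9.23 CPM in COL1 and 123 in STIFF, and 66.8 in MATR and 14.4 in SOFT, with STIFF over COL1 at 13.3 (8.18 to 23.2) and MATR over COL1 at 7.24 (4.31 to 12.9).

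Other inflammatory genes rested on fewer cells. Saa3 stood at 90.2 CPM in COL1 and 1392 in STIFF, and 38.2 in MATR and 271 in SOFT, a STIFF over COL1 ratio of 15.4 (13.2 to 18.2). It was seen in 22, 35, 11 and 22 cells, and the top cell held 61.4%, 25.5%, 41.7% and 54.9% of the UMIs. The other kept barcodes held 219, 50.2, 132 and 186 CPM in COL1, STIFF, MATR and SOFT, lowest in STIFF, where the members were highest. The neutrophil-attracting Cxcl5 stood at 2.72, 111, 10.2 and 5.39 CPM, from 2, 32, 4 and 4 cells, with STIFF over COL1 at 40.7 (17.2 to 126). Ccl2, which attracts monocytes, stood at 234 CPM in COL1 and 1419 in STIFF, and 217 in MATR and 426 in SOFT, and without the deepest STIFF cell STIFF was at 705 CPM. Ccl8 stood at 621, 1506, 1020 and 803 CPM in COL1, STIFF, MATR and SOFT, with 43.6% of the MATR UMIs in 1 cell. STIFF was above SOFT for Ccl8 in the fibroblast-like cells, by 1.72 on the log2 scale, and below it in the pericyte-like cells, at -2.35. Cxcl14, a chemokine of many resting tissues, ran the other way, at 1443 CPM in COL1 and 1055 in STIFF, and 1559 in MATR and 2987 in SOFT, a SOFT over STIFF ratio of 2.83 (2.70 to 2.97). In the sums of the pericyte-like cells STIFF was above SOFT by 2.01 on the log2 scale. Only 3 of 30 STIFF and 3 of 15 SOFT cells there held a Cxcl14 UMI. In MATR against SOFT 3 of 17 genes of the list were higher and 8 lower (4.45% and 3.14% of all genes), and in COL1 against MATR 6 of 18 were higher and 4 lower (2.52% and 3.9%). The fibroblast-like cells gave other splits for these, with 8 of 17 higher and 6 lower in MATR against SOFT (7.25% and 6.42% of all genes there). In COL1 against MATR 2 of 17 were higher and 5 lower among them (5.12% and 5.71%).

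Interferon-stimulated genes, which encode antiviral effectors and antigen-processing proteins, were lowest in COL1. Of 22 measured genes of this list of 36, 12 were lower and none higher in COL1 than in STIFF (3.99% of all genes were lower), with a list median of -0.68. Of 28 measured in COL1 against MATR 16 were lower and none higher (3.9% of all genes were lower), with a median of -0.66. In the other kept barcodes none of 25 and none of 23 was lower (0.635% and 0.857% of all genes there were), with medians of -0.11 and -0.13. Among fibroblast-like cells 13 of 20 were lower and none higher in COL1 against STIFF (5.28% of all genes there were lower), and 18 of 27 were lower and none higher in COL1 against MATR (5.71%). Without 1 MATR cell rich in these transcripts the latter count was 16 of 26 (5.78%). Isg15, a ubiquitin-like modifier, stood at 77.1 CPM in COL1 and 214 in STIFF, and 270 in MATR and 297 in SOFT, with STIFF over COL1 at 2.78 (2.30 to 3.37). The other kept barcodes held 67.8, 81.2, 93.5 and 129 CPM of Isg15 in the same order. The tethering factor Bst2 stood at 174, 412, 368 and 493 CPM in COL1, STIFF, MATR and SOFT, with STIFF over COL1 at 2.37 (2.09 to 2.70). Irf7, the transcription factor that amplifies interferon output, stood at 31.0, 104, 71.3 and 105 CPM, with STIFF over COL1 at 3.35 (2.50 to 4.55). The class I light chain B2m stood at 992 CPM in COL1 and 1555 in STIFF, and 1100 in MATR and 1230 in SOFT.

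MATR and SOFT differed for a subset of these genes, and much of that rested on few cells. Of 30 measured genes 8 were higher and 2 lower in MATR than in SOFT (4.45% and 3.14% of all genes). Of 24 in STIFF against SOFT 1 was higher and 1 lower (3.48% and 2.1% of all genes). Ifit1, an RNA-binding antiviral protein, stood at 31.5 CPM in COL1 and 46.0 in STIFF, and 123 in MATR and 30.0 in SOFT, a MATR over SOFT ratio of 4.10 (2.99 to 5.71). Its top cell held 41.5% of the MATR UMIs, and without it MATR stood at 74.1 CPM. Ifit3 stood at 8.15, 14.2, 51.6 and 11.4 CPM, and without its top cell MATR stood at 32.8 CPM. The chemokine Cxcl10 stood at 10.9 CPM in COL1 and 5.59 in STIFF, and 145 in MATR and 0 in SOFT, at least 80.7-fold higher in MATR than in SOFT against a floor of 3 counts per library, with 86.0% of the MATR UMIs in 1 of 4 cells. That cell was fibroblast-like, held 15860 UMIs and detected 33 of the 36 list genes, and 5.80% of the interferon-stimulated UMIs of MATR came from it. Without it none was higher and 10 of 24 were lower in COL1 against MATR (3.85% of all genes were lower). Ifi27l2a ran the other way, at 47.3 CPM in COL1 and 198 in STIFF, and 116 in MATR and 282 in SOFT.

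The promoters of these genes were searched for the shared core of the interferon response element, GAAANNGAAA or its reverse TTTCNNTTTC, on both strands within 250 bases before the annotated start. The 2 forms are the same motif read from either strand, and overlapping copies were allowed. The core was found in 15 of the 30 list genes that matched the RefSeq promoter table, against 978 of all 32851 promoters of the same length (2.98%) and 3.46% of all genes of the table. The sequences below are shown because these genes were lower in COL1 than in STIFF or MATR. They are RefSeq sequence, build GRCm38.p6, on the gene's own strand, with capitals marking the core and lower case the flanking bases.
Ifit1, chr19:34640765-34640833, plus strand: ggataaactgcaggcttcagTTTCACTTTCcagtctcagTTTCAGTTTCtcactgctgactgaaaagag
Ifit3, chr19:34583353-34583436, plus strand: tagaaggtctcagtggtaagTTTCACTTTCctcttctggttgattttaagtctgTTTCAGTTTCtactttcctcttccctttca
Isg15, chr4:156200855-156200916, minus strand: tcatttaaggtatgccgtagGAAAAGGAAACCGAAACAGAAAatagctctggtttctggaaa
Bst2, chr8:71537567-71537622, minus strand: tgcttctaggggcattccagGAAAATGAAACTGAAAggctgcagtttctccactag
Cxcl10, chr5:92349073-92349122, minus strand: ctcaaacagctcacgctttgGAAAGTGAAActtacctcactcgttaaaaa
B2m, chr2:122147528-122147577, plus strand: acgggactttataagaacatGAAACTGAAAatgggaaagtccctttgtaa
Ifit1 and Ifit3 each hold separate copies of the core, Isg15 and Bst2 hold overlapping ones, and Cxcl10 and B2m hold 1 each. Among the genes without a match in this window were Irf7 and Psmb8, which stood at 31.0 and 66.8 CPM in COL1 against 104 and 128 CPM in STIFF. The stretch printed for Ifit3 has the same letters as that of its copy Ifit3b at chr19:34607749-34607832, and counts of these near-identical genes are uncertain. A match is a description of the letters and not a site of binding.

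The lower interferon-stimulated level of COL1 was seen in the median cell as well as in the sum. The summed interferon-stimulated UMIs per 10000 had a median of 47.1 in COL1 and 76.5 in STIFF, and 64.5 in MATR and 78.7 in SOFT. The middle 50% of cells spanned 35.0 to 66.8 UMIs per 10000 in COL1 and 57.7 to 106 in STIFF, with 47.9 to 93.4 in MATR and 57.7 to 93.4 in SOFT, so the cells of the cultures overlapped. The medians of fibroblast-like cells were 40.2, 73.2, 53.4 and 67.4. Saa3 was unlike this, with a median of 0 in all 4 cultures and maxima of 25.7, 551, 14.7 and 151 UMIs per 10000 in COL1, STIFF, MATR and SOFT.

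**Figure D5:**
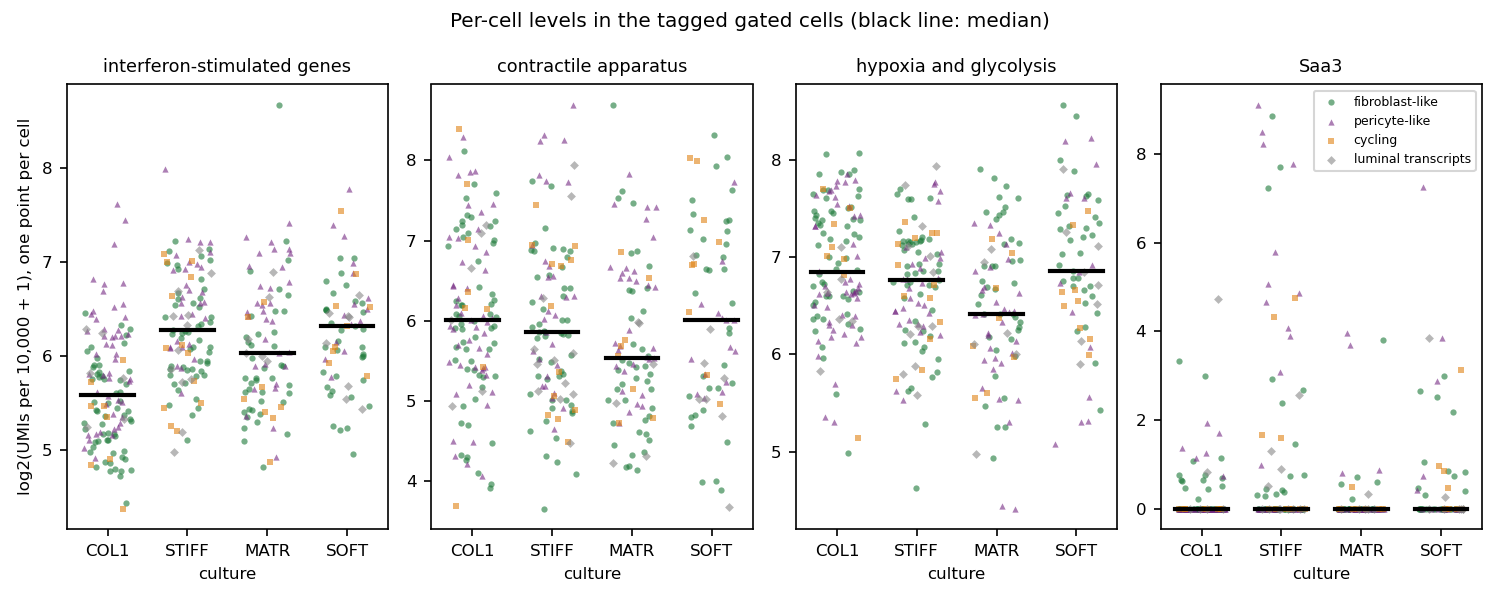
UMIs per 10000 in single members, as log2(value + 1), for the summed interferon-stimulated genes, contractile genes and hypoxia genes and for Saa3, in 4 panels. Each point is a cell coloured by cluster, black lines are medians, and the 4 cultures lie along the x axis. The interferon-stimulated sum is lowest in COL1 (median 47.1), while most cells have no Saa3 UMI.

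Hypoxia and glycolysis genes were more often higher in COL1 than in STIFF or MATR. Of 22 measured genes 7 were higher and none lower than in STIFF (2.89% of all genes were higher), and 8 were higher and none lower than in MATR (2.52% of all genes). Among fibroblast-like cells 9 of 22 were higher than in STIFF and 4 of 22 than in MATR (4.38% and 5.12% of all genes there), and none was lower. The glucose transporter Slc2a1 stood at 163 CPM in COL1 and 89.9 in STIFF, and 76.4 in MATR and 123 in SOFT, with COL1 over MATR at 2.13 (1.72 to 2.66). The mitophagy receptor Bnip3 stood at 357, 227, 217 and 258 CPM, with COL1 over STIFF at 1.57 (1.40 to 1.77). The vasodilator peptide Adm stood at 141, 58.1, 116 and 63.5 CPM, with COL1 over STIFF at 2.43 (1.97 to 3.02). In the other kept barcodes Bnip3 stood at 288, 305, 379 and 283 CPM in COL1, STIFF, MATR and SOFT, with MATR and not COL1 highest, and 3 of 23 genes were higher in COL1 than in STIFF (0.935% of all genes there) and none than in MATR (2.94%). The per-cell sums moved less, with medians of 114, 108, 84.4 and 115 UMIs per 10000 in the 4 cultures. In MATR against SOFT 1 of 22 was higher and 3 lower (4.45% and 3.14% of all genes), and in STIFF against SOFT none was higher and 3 lower (2.1% of all genes were lower). The haem-degrading Hmox1 stood at 134, 45.2, 42.6 and 61.7 CPM, with 41.5% of the COL1 UMIs in 1 cell.

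Immediate-early genes, transcription factors that switch on within minutes of a stimulus, were more often higher in COL1 than in STIFF and in MATR than in SOFT. Fos stood at 1950 CPM in COL1 and 1400 in STIFF, and 1396 in MATR and 786 in SOFT, and Fosb at 596, 358, 462 and 233 CPM. Of 23 measured genes of this class 5 were higher and none lower in COL1 against STIFF (2.89% of all genes were higher), and 5 were higher and 1 lower in MATR against SOFT (4.45%). Among fibroblast-like cells 3 of 23 were higher in COL1 against STIFF (4.38% of all genes there) and 8 of 24 in MATR against SOFT (7.25%), with 1 lower in the latter. In each culture the median sum of the class was higher in pericyte-like than in fibroblast-like cells, at 182 against 80.1 UMIs per 10000 in COL1, and COL1 and MATR had the larger pericyte-like shares (40.2% and 36.8% against 28% and 22.4%). The part of that mix was not tested beyond these values. In STIFF against SOFT 4 were higher (3.48% of all genes) and none lower. Among pericyte-like cells 1 of 24 was higher and 10 were lower in that comparison, where 15.9% and 16.7% of all genes were. In COL1 against MATR 4 were higher and 1 lower (2.52% and 3.9% of all genes). Immediate-early genes are also known to respond to tissue dissociation. The metal-binding stress gene Mt1 was highest in MATR, at 1826 CPM against 1109 in COL1, 1055 in STIFF and 991 in SOFT, as was Mt2, at 531 CPM against 259, 276 and 249 CPM.

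Smaller gene lists held some differences between the cultures as well. Among mesenchymal transcription factors, Osr1, a zinc finger factor of connective tissue progenitors, stood at 15.8 CPM in COL1 and 31.8 in STIFF, and 49.7 in MATR and 8.99 in SOFT, with MATR over SOFT at 5.52 (3.15 to 10.3). Fibroblast-like cells had the same order, at 22.1, 48.3, 60.8 and 12.8 CPM in COL1, STIFF, MATR and SOFT. Of this list 3 of 22 were lower in COL1 against STIFF (3.99% of all genes) and 4 of 23 in COL1 against MATR (3.9%). In MATR against SOFT 4 of 24 were higher and 1 lower (4.45% and 3.14% of all genes), and 1 of 24 was higher in STIFF against SOFT (3.48%). Twist2, a factor of dermal and mammary fibroblasts, was called in none of these, at 128, 137, 136 and 185 CPM. Igfbp4, which binds insulin-like growth factors, stood at 158, 145, 266 and 91.7 CPM in COL1, STIFF, MATR and SOFT, with MATR over SOFT at 2.90 (2.41 to 3.52). The thrombin receptor gene F2r stood at 110, 105, 167 and 73.1 CPM. Of 10 measured complement and clotting genes 4 were higher and none lower in MATR against SOFT (4.45% of all genes were higher). In COL1 against STIFF 2 were higher and 1 lower (2.89% and 3.99% of all genes).

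Division genes were more often lower in COL1 than in STIFF. In COL1 against STIFF 10 of 20 measured genes were lower and none higher, and without the deepest STIFF cell 6 of 18 were lower (3.99% and 3.35% of all genes). The share of cycling cells was 6.56% in COL1 and 12.1% in STIFF (8 and 13 cells). In STIFF against SOFT 4 of 21 were higher (3.48% of all genes) and none lower, and without that cell 1 of 19 was higher and 2 lower (2.85% and 2.26%). In MATR against SOFT 1 of 20 was higher and 1 lower (4.45% and 3.14%), and in COL1 against MATR none of 19 was higher and 5 were lower (3.9% of all genes were lower). The proliferation marker Mki67 stood at 30.4 CPM in COL1 and 61.1 in STIFF, and 55.4 in MATR and 24.0 in SOFT. It was thus lowest in SOFT, where the share of cycling cells was highest. Of the cholesterol synthesis genes 2 of 15 were lower in COL1 against STIFF (3.99% of all genes) and 3 of 14 were lower in MATR against SOFT (3.14%), where Sqle stood at 22.3 against 50.9 CPM, and none of 15 was called in the other 2 comparisons.

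Among all genes, those named by rank of their ratio included several carried by few cells. The placental growth factor gene Pgf stood at 60.8, 15.5, 19.7 and 45.5 CPM in COL1, STIFF, MATR and SOFT, with COL1 over STIFF at 3.93 (2.68 to 5.89). Meg3, a long noncoding RNA, stood at 198, 65.8, 131 and 164 CPM. The respiratory chain isoform Cox4i2, known from pericytes, stood at 82.0, 21.5, 53.5 and 76.1 CPM, and Rgs5 at 165, 13.8, 146 and 29.4 CPM, with 49.7% of the COL1 Rgs5 UMIs in 1 cell. COL1 and MATR also had the larger pericyte-like shares given above, though Cox4i2 was higher in SOFT than in MATR. Within the pericyte-like cells COL1 was above STIFF by 3.22 for Rgs5 and 1.75 for Cox4i2 on the log2 scale. The part of the cell mix was not tested.

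Further genes named by their ratio set MATR or COL1 apart from the other cultures. The fatty acid binding protein gene Fabp4 stood at 557 CPM in COL1 and 256 in STIFF, and 157 in MATR and 357 in SOFT, with COL1 over MATR at 3.54 (3.08 to 4.09). C1qtnf3, a secreted relative of adiponectin, stood at 227, 87.4, 66.2 and 101 CPM. Itih5, a hyaluronan-associated protein gene, stood at 23.9, 105, 125 and 92.3 CPM, with MATR over COL1 at 5.25 (3.77 to 7.45). Mgp, which inhibits calcification of matrix, stood at 1111, 1816, 3872 and 1522 CPM, but 1 cell held 79.2% of the SOFT and 55.5% of the STIFF UMIs. Without the top cell of each culture Mgp stood at 790, 814, 3379 and 321 CPM, with MATR highest. This held for the fibroblast-like cells, where MATR was above SOFT by 4.28 on the log2 scale, and not for the pericyte-like cells, at -2.44. Cpxm2, a carboxypeptidase-like protein gene, stood at 20.6, 12.5, 87.2 and 12 CPM, with MATR over SOFT at 7.28 (4.53 to 12.3). Several extreme ratios came from a handful of cells: Thbs4 at 75.8 CPM in MATR and 0 in SOFT came from 4 MATR cells, Prr9 at 117 CPM in SOFT and 0.637 in MATR from 9 SOFT cells, and 94.4% of the Krt15 UMIs of MATR from 1 of 2 cells. Of the Gzme UMIs of SOFT (113 CPM) 82.4% were in 1 cell, and without it SOFT stood at 20.4 CPM.

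The 2 pools as wholes, untagged members included, differed little. Of 5841 measured genes 0.616% were higher and 0.633% lower in the members of the COL1 and STIFF pool. Inflammatory genes led the higher ones, with Saa3 at 969 against 235 CPM, a ratio of 4.13 (3.88 to 4.39), Ccl2 at 856 against 283 CPM, and Cxcl1 at 414 against 152 CPM, a ratio of 2.72 (2.51 to 2.95). Of 18 genes of the chemokine list 6 were higher and 2 lower. Actg2, the enteric smooth muscle actin, stood at 104 against 34.0 CPM, but in the fibroblast-like cells it stood at 4.87 against 15.3 CPM, the other way round. The genes that were lower included Cxcl14 at 1012 against 1917 CPM, the retinoic acid hydroxylase gene Cyp26b1 at 30.0 against 70.8 CPM, a ratio of 2.36 (1.99 to 2.79), and Ifit1 at 30.4 against 63.0 CPM. Of 26 interferon-stimulated genes 5 were lower and none higher. None of the 16 fibrillar collagen genes and partners was called between the pools, although 7, gate genes among them, were between MATR and SOFT.

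A single member held much of the UMIs behind several STIFF values. This cell held 102175 UMIs, the next deepest member 83396, and it carried 2017 counts of the STIFF hashtag against 43 of the other. It lay in the cycling cluster, with 31.0 collagen UMIs and 5.97 Krt8 plus Krt18 UMIs per 10000, and held 4.40% of the STIFF member UMIs. It held 99.5% of the STIFF UMIs of the chemokine Cxcl3, 90.0% of those of Gdf15, and 69.4% of those of Cdkn1a, the p21 inhibitor of the cell cycle. Mdm2, the ubiquitin ligase that turns over p53, stood at 3729 CPM in this cell and at 36.9 CPM in the other STIFF members. Over the cultures Mdm2 stood at 38.6 CPM in COL1 and 199 in STIFF, and 42 in MATR and 37.2 in SOFT, and 82.3% of the STIFF UMIs were in this cell. It also held 52.5% of the STIFF UMIs of Ccl2, 54.2% of those of Ccl7 and 47.0% of those of the macrophage growth factor Csf1, but for Ccl11, Il33 and Cxcl5 STIFF was highest without it too.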

How the data were processed

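Single-cell gene counts and antibody hashtag counts were deposited for 2 pools of mouse mammary organoid cells. Per the file headers, the authors made these whole-number counts of UMIs with Cell Ranger 5.0.0. Build mm10 and Seurat 4.2.0 are named in the submitters' processing notes, and other settings are not given in the sources used here. The second deposited entry of each pool held identical gene counts (0 entries differed), so each pool was read once. The pools shared 22 barcodes, 1 of them a member's, and no member was in both.

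Hashtags were called with HTODemux (Seurat 5.3.0, R 4.3.3, positive quantile 0.99) on barcodes with at least 1000 UMIs and 500 genes. Tags were paired with cultures as the names of the deposited matrices pair them, and exchanging them would turn the within-pool ratios round. No doublet caller was run: the gate only limits keratin and macrophage transcripts, 10 of the 53 cells with luminal transcripts carried both tags by the ratio rule, and members with both tags entered no culture. Members were clustered with scanpy 1.11.5 (2000 variable genes, 20 components, 15 neighbours, Leiden resolution 0.3, igraph 0.11.9). UMIs were summed per culture and compared as log2(CPM + 10) with no test, since each condition had 1 culture. Ratios are of CPM, with exact binomial 95% intervals, and the floor for a level of 0 was 3 counts. TMM scaling moved log2 ratios by at most 0.05. Shares of cells with a UMI were taken after thinning to 3000 UMIs. Work was done in Python 3.11.15 with numpy 2.4.6, scipy 1.17.1, pandas 2.3.3 and matplotlib 3.10.9, and the ratio script was tested on simulated data.

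The members and gene lists were chosen with earlier results of these data known, so no list is independent evidence. Genes named by rank needed 100 UMIs over both groups, 50 CPM in 1 group and a level in the higher group no lower than in the other barcodes of its pool. Gate, mitochondrial, ribosomal, haemoglobin, sex-linked and unnamed genes were left out, and the rule took 10 each way between pools, 6 each way per matrix comparison and 25 over the other barcodes. List extremes and the 5 leading genes of each cluster were named too, and the remaining named genes were chosen after their values were seen. Alternatives changed the gate, the UMI minimum, the tag rule, the pseudocount, the level filter and the scaling. Those that used single clusters or left out single cells were added after the data were seen. Some genes that the naming rule selects are not reported here.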

Additional observations from a re-analysis of the deposited data

Results flagged for a closer look

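The third hashtag of the files, which belongs to none of the 4 cultures, was counted in the members. It had 372 counts in the members of the COL1 and STIFF pool, where 179 of 437 members (41.0%) held at least 1, and 280 counts in those of the MATR and SOFT pool, where 130 of 266 (48.9%) did. The most in a member was 13 counts, and among all kept barcodes 44.5% and 49.9% held at least 1.

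For some genes whose ratios are given above, the fibroblast-like and the pericyte-like cells differed between cultures in opposite directions by at least 1.5-fold on the log2(CPM + 10) scale, each with an interval for counting error on 1 side of equality. The difference between the clusters was not tested, and SOFT held only 15 pericyte-like cells. Actg2 differed by -0.77 in the fibroblast-like and 1.09 in the pericyte-like cells between the COL1 and STIFF pool and the MATR and SOFT pool. Between MATR and SOFT, in the same order of clusters, Ccn2 differed by -2.50 and 0.69, Thbs1 by -2.31 and 1.46, Acta2 by -1.03 and 1.94 and Mgp by 4.28 and -2.44. Between STIFF and SOFT, Cxcl14 differed by -1.46 and 2.01, Ccn2 by -1.70 and 0.61 and Ccl8 by 1.72 and -2.35. All are differences of sums, and the median pericyte-like cell held less Ccn2 in MATR and in STIFF than in SOFT. Of the pericyte-like cells only 3 of 30 in STIFF and 3 of 15 in SOFT held a Cxcl14 UMI. Cxcl10 differed by -4.78 and 1.49 between COL1 and MATR. However, 1 fibroblast-like cell held 196 of the 228 Cxcl10 UMIs of MATR, and COL1 held 20. Most of the Mgp UMIs of SOFT were also in 1 cell. Over all genes measured in both clusters, opposite differences of this size, whatever their intervals, were seen for 107 of 5329 (2.01%) between MATR and SOFT, 75 of 5222 (1.44%) between STIFF and SOFT, 57 of 5302 (1.08%) between COL1 and MATR, 33 of 5246 (0.629%) between COL1 and STIFF and 11 of 5325 (0.207%) between the pools.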

How the results depend on the processing

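No paired analysis was possible because each condition was 1 culture. Of the shares and gene counts under all alternatives, 86 kept their value within the stated limits and 20 moved; of the values of single named genes 2853 did, 148 moved and 44 reversed, and the cause was not tested beyond the settings themselves. The member share of the first pool fell from 5.70% to 4.85% with a minimum of 1000 UMIs and to 5.16% with a Krt8 plus Krt18 limit of 5. The genes called numbered 73 between pools, 412 for COL1 over STIFF, 455 for MATR over SOFT, 332 for STIFF over SOFT and 387 for COL1 over MATR. In that order they numbered 145, 758, 772, 587 and 709 with a pseudocount of 1, and 321, 1621, 2002, 1980 and 1544 in the pericyte-like cells alone. In the fibroblast-like cells alone they numbered 131 between pools, 811 for MATR over SOFT, 582 for STIFF over SOFT and 639 for COL1 over MATR. Without a minimum level they numbered 696 for MATR over SOFT and 603 for COL1 over MATR. With the margin between raw hashtag counts they numbered 640 for COL1 over STIFF and 685 for COL1 over MATR.

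Reversed log2 differences mostly belonged to genes held by the deepest STIFF cell. With a collagen limit of 40, Mdm2 came to -0.11 between pools, 0.068 for COL1 over STIFF and -0.11 for STIFF over SOFT, Cxcl3 to 0.11 and -0.049 in the latter comparisons, and Snhg15 to -0.46 for STIFF over SOFT. Without the deepest 5% of members the same values were -0.062, 0.068, -0.045, 0.0089, -0.050 and -0.49, and Gzme came to 0.34 for STIFF over SOFT. Without the deepest member alone they were -0.056, 0.050, -0.0075, 0.093, -0.039 and -0.51. With a Krt8 plus Krt18 limit of 5, Mdm2 came to -0.065 between pools and -0.020 for STIFF over SOFT, Cxcl3 to 0.096 for COL1 over STIFF and -0.047 for STIFF over SOFT, and Snhg15 to -0.54. In the fibroblast-like cells Mdm2 came to -0.13 between pools, 0.14 for COL1 over STIFF and -0.029 for STIFF over SOFT, Cxcl3 to 0.14 for COL1 over STIFF, Snhg15 to -0.47 and Actg2 to -0.77 between pools. In the pericyte-like cells Cxcl3 came to 0.012 for COL1 over STIFF, Mdm2 to -0.25, Snhg15 to -0.84 and Cxcl14 to 2.01 for STIFF over SOFT, Ccn2 to 0.69 for MATR over SOFT and -0.35 for COL1 over MATR, and Cxcl10 to 1.49 for COL1 over MATR. Without cells holding pericyte markers Mdm2 came to -0.088 between pools and 0.0097 for COL1 over STIFF, Cxcl3 to 0.15 and Snhg15 to -0.41. Without its top cell in each culture Mdm2 came to -0.030 between pools, Cxcl3 to 0.029 for COL1 over STIFF and Snhg15 to -0.25 for STIFF over SOFT. Depth limits genes below 20 CPM, which at these totals rest on few UMIs per culture.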
